A study of Mus musculus with 19 samples.

Results

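The comparison described here set the muscle miRNAs of high-active mice against those of low-active mice, pooled over both hindlimb muscles. Its members were all 12 muscle arrays of the 19 arrays in the series, 6 from high-active mice (4 soleus and 2 EDL) and 6 from low-active mice (2 soleus and 4 EDL), selected by the strain and tissue labels and not by any measured value. The difference was taken as high-active minus low-active, with the muscle as a covariate and the mouse as a block, across the mouse miRNAs detected in muscle.

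High-active mice were of the inbred strain C57L/J and low-active mice of the inbred strain C3H/HeJ, and no treatment was applied. According to the study's methods all arrayed mice were male. They were housed singly with a locked wheel from 8 weeks of age and were killed 1 week later. The arrays came from 4 mice of each strain, since mice 225 and 227 (high-active) and 194 and 195 (low-active) gave both muscles, mice 223 and 224 gave only a soleus array and mice 196 and 197 only an EDL array. As each inbred strain is a single genotype, a difference between strains cannot be told apart from any other way in which the genotypes differ. Arrays of poor quality had been dismissed by the authors, who had chosen samples by RNA integrity.

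MicroRNAs are short RNAs cut from a hairpin, from either its 5p or its 3p arm, and they repress messenger RNAs that pair with the seed, bases 2 to 8 of the mature strand. Skeletal muscle is dominated by miR-1, miR-133 and miR-206, which take part in the growth and maturation of muscle fibres, while miR-208b and miR-499 are made from introns of slow myosin genes. The soleus is a slow postural muscle and the EDL (extensor digitorum longus) a fast one.

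The mature sequences of the miRNAs that separated the strains most clearly, and of some of their relatives, are shown so that the families can be read against the values that follow. They were taken from RefSeq (GRCm38.p6), with the seed in capitals.
miR-342-3p: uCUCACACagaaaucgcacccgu
miR-181d-5p: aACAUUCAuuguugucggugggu
miR-181c-5p: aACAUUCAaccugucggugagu
miR-181a-5p: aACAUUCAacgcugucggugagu
miR-181b-5p: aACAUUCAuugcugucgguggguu
miR-203-3p: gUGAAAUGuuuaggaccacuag
miR-30a-5p: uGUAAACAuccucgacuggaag
miR-30c-5p: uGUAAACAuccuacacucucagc
miR-30e-5p: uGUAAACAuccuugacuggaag
miR-30a-3p: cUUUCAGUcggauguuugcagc
miR-30c-2-3p: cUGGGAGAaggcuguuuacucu

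The seed ACAUUCA is common to the 4 miR-181 members and GUAAACA to the miR-30 5p members. The 3p arms miR-30a-3p and miR-30c-2-3p carry seeds of their own. miR-30a-5p and miR-30e-5p have the same base at 21 of 22 positions, and miR-181b-5p and miR-181d-5p at 22 of the 23 they share, so part of the signal of such pairs may come from the other member and their probes cannot be taken as independent.

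Over the 12 arrays 330 mouse miRNAs were detected at least once, 187 on every array, and the 281 detected on at least 4 arrays were tested. A miRNA was called detected where at least 50% of its spots stood well above background by the scanner software's own flag. Levels are given as log2 of the spot signal after scaling, and signals under 18.7 units (4.23 on the log2 scale) were set to that floor. Low-active arrays detected 214 to 292 miRNAs and high-active arrays 229 to 275, and the scaling percentile before correction was 689 to 1722 units against 839 to 1448. The dimmest array was the EDL of low-active mouse 195. No spot was saturated, and the number of arrays limits the precision, with a median standard error of 0.21 and a 95% interval reaching a median of 0.45 to either side on the log2 scale. The muscle labels were borne out by their markers, since miR-1a-3p, miR-133a-3p and miR-133b-3p were detected on all 12 arrays the slow-fibre miR-499-5p was 4.61 log2 units higher in the soleus than in the EDL and miR-208b-3p was detected in the soleus alone. In tissue RNA, fewer cells of a type and less of an RNA per cell cannot be told apart.

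Few miRNAs passed the adjusted threshold between the strains in the pooled comparison. Of the 281 miRNAs tested, 3 passed an adjusted p of 0.05 (1.07%), 1 of them higher in high-active mice (0.356%) and 2 lower (0.712%). The higher one was miR-342-3p, with a 5.00-fold difference, and the lower ones were miR-203-3p and miR-181d-5p, with 2.58-fold and 1.84-fold differences. At an unadjusted p under 0.05 there were 54 miRNAs (19.2%), 21 higher and 33 lower, while the median difference over all miRNAs tested was -0.01. For 207 of the 281 the 95% interval of the difference lay within 1 log2 unit of 0. The count depended on single arrays. Without the EDL array of low-active mouse 195 it was 30 (10 higher and 20 lower, the 3 above among them), and without the soleus array of low-active mouse 194 it was 17, while without the EDL array of high-active mouse 225, or without all arrays of mouse 225 or of mouse 227, it was 1.

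**Figure D1:**
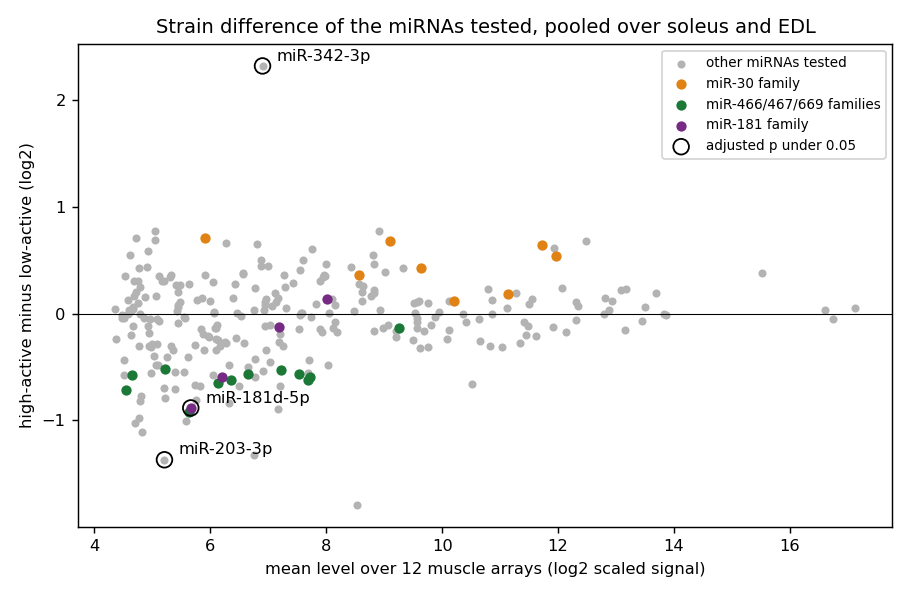
Strain difference (high-active minus low-active, log2, vertical axis) against mean level over the 12 muscle arrays (log2 scaled signal, horizontal axis) for the 281 miRNAs tested, 1 point each. Open circles mark the 3 miRNAs with an adjusted p under 0.05, and colours mark families. miR-342-3p lies alone at 2.32, the 8 miR-30 members lie above 0 and the 12 tested members of the list of miR-466, miR-467 and miR-669 names (green) below 0.

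miR-342-3p is cut from a hairpin within Evl, a gene on chromosome 12 for an actin regulator of the Ena/VASP family (chr12:108658680-108658702, plus strand, GRCm38.p6), and was the most strongly differing miRNA in muscle. Its level over the high-active arrays was 7.77 at the lowest, 8.14 at the median and 8.36 at the highest, and over the low-active arrays 5.35, 5.72 and 6.08. Every high-active array thus lay above every low-active one. The fitted difference was 2.32 (standard error 0.175, adjusted p = 1.68e-06 by limma, 95% interval 1.94 to 2.70). It was 2.34 within the soleus (adjusted p = 0.00796 by limma) and 2.36 within the EDL (adjusted p = 0.0247 by limma). Within the 3 slides it was 2.60, 2.47 and 2.48. With muscle as a covariate, any slide 3 value rests on 1 EDL array of each strain. Any slide 2 value rests on 2 high-active soleus arrays against 1 low-active one. The 2 probes of miR-342-3p gave 2.32 and 2.36. By mouse, too, the strains were fully separated, as they were for 24 of the 281 miRNAs (8.54%). The other arm of the hairpin, miR-342-5p, was not detected on any muscle array.

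The other calls ran the other way. miR-203-3p, known from the epidermis, where it restrains the proliferation of keratinocytes, stood at 4.23, 4.41 and 5.47 (lowest, median and highest) on the high-active arrays and at 5.41, 5.88 and 6.31 on the low-active arrays. It was detected on 1 of 6 high-active arrays and on 6 of 6 low-active arrays, and only the soleus array of mouse 224, at 5.47, reached the low-active range. The fitted difference was -1.37 (standard error 0.241, adjusted p = 0.00708 by limma), with -1.20 within the soleus and -1.58 within the EDL, and -1.74, -0.79 and -1.19 within the 3 slides. Its 2 probes gave -1.47 and -0.92. At a level this close to background the fold is limited by the floor. The other epithelial miRNA measured, miR-205-5p, was detected on 1 of 6 high-active and 6 of 6 low-active arrays, at 4.23, 4.23 and 5.09 against 4.57, 5.17 and 6.45, with a difference of -0.77 (standard error 0.332, adjusted p = 0.22 by limma). Of the 14 epithelial and skin miRNAs on the array these were the 2 detected, and no arm of miR-141, miR-200a, miR-200b, miR-200c or miR-429 was detected on any muscle array. Their summed level was 5.23 to 6.29 on high-active and 6.05 to 7.38 on low-active arrays, and the part of epithelial RNA in the miR-203-3p difference was not tested.

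miR-181d-5p belongs to a family that acts in lymphocyte development and in the differentiation of myoblasts. Its levels were 4.85, 5.41 and 5.71 on the high-active arrays and 5.86, 6.05 and 6.18 on the low-active arrays, so that the groups did not overlap. The difference was -0.88 (standard error 0.151, adjusted p = 0.00708 by limma), with -0.62 within the soleus, -1.11 within the EDL, and -0.79, -0.60 and -1.06 within the 3 slides. The 2 high-active EDL arrays, at 4.85 and 4.88, were the lowest of the 12. Its 2 probes gave -0.85 and -0.84.

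miR-181c-5p is encoded beside miR-181d-5p on chromosome 8, on the same strand and with 142 bases between the mature strands (chr8:84178924-84178945 and chr8:84178759-84178781, minus strand, GRCm38.p6). Its levels were 5.31, 6.13 and 6.32 on the high-active arrays and 6.15, 6.46 and 6.59 on the low-active arrays. The groups overlapped slightly by array but not by mouse, and the difference of -0.60 (standard error 0.161) did not pass the threshold (adjusted p = 0.0912 by limma). The members encoded elsewhere lay closer to 0, at 0.13 (standard error 0.144) for miR-181a-5p and -0.13 (standard error 0.136) for miR-181b-5p, although neither this contrast among members nor the family as a whole was tested. The 4 miR-181 members measured, of 10 arms on the array, had a median of -0.36.

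Calls of miR-203-3p and miR-181d-5p depended on how signals near background were treated. With normexp background correction at an offset of 50 the differences were -0.19 and -0.14, and with the floor set 4 times as high they were -0.01 and 0. That raised floor lay above every miR-181d-5p value (6.18 at the highest) and just under the highest miR-203-3p value (6.31). Differences at or near 0 there follow from the setting and say nothing about the strains. Neither miRNA passed without the EDL array of high-active mouse 225 (both adjusted p = 0.0586 by limma). Over the alternatives, the raised floor among them, adjusted p ranged from 0.00125 to 1 for miR-181d-5p and from 0.000409 to 1 for miR-203-3p. miR-342-3p passed in all 46 alternatives in which it was tested, with 1.38 as the lowest difference.

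**Figure D2:**
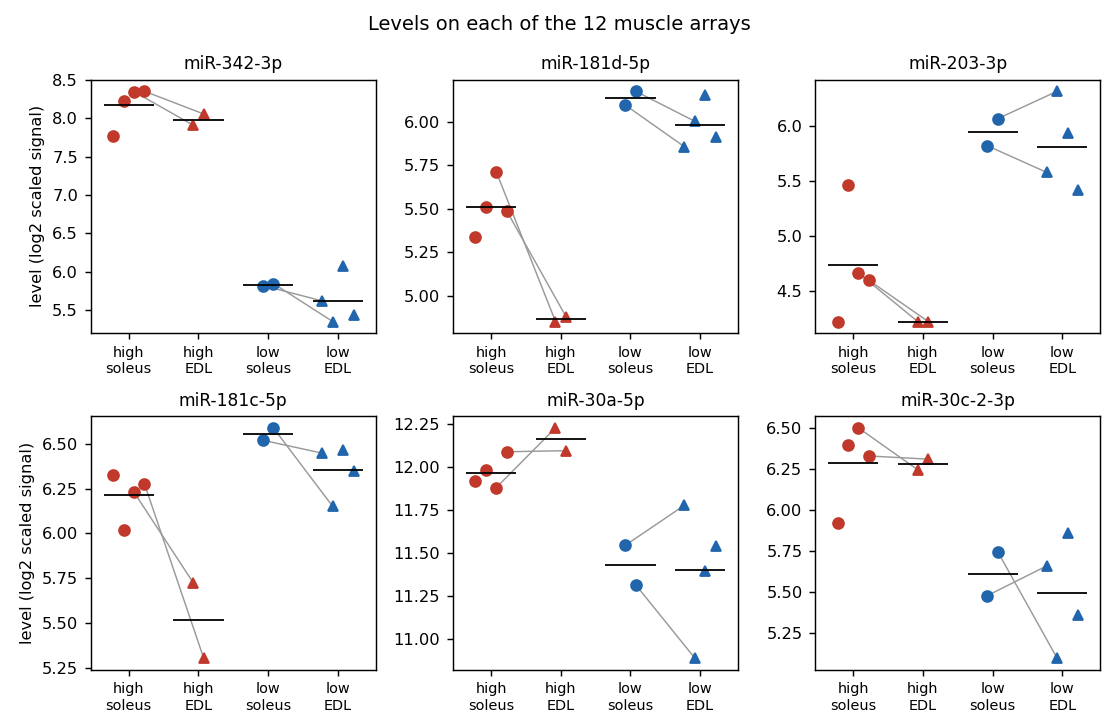
Level (log2 scaled signal) of 6 miRNAs on each of the 12 muscle arrays, circles for soleus and triangles for EDL, red for high-active and blue for low-active mice. Black bars are group means, grey lines join the muscles of the same mouse, and each panel has its own vertical scale that does not start at 0. For miR-342-3p, miR-181d-5p, miR-30a-5p and miR-30c-2-3p no red point overlaps a blue one.

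Members of the miR-30 family, which are abundant in muscle and heart, all had higher means in high-active mice, and none passed the adjusted threshold. Of 11 miR-30 arms on the array 8 were tested, all 8 with a positive difference, at a median of 0.49 and a range from 0.12 to 0.71, and 4 had an unadjusted p under 0.05. Among all 281 miRNAs tested the high-active mean was above the low-active one for 134 and below it for 147, and 19.2% had an unadjusted p under 0.05. The direction held for all 8 under each scaling except no scaling, where 6 of 8 were positive (median 0.23), and within the EDL alone it held for 7. miR-30a-5p and miR-30c-5p are encoded on chromosome 1 with 19418 bases between their mature strands on the same strand (miR-30c-5p has a second locus).

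For miR-30a-5p the high-active arrays read 11.88, 12.04 and 12.23 and the low-active arrays 10.89, 11.47 and 11.78. The difference was 0.64 (standard error 0.170, adjusted p = 0.0912 by limma). The groups did not overlap, and the lowest value came from the dimmest array, the EDL of mouse 195. For miR-30c-5p the values were 12.03, 12.28 and 12.36 against 11.23, 11.78 and 11.91, a difference of 0.54 (standard error 0.160, adjusted p = 0.111 by limma). Here too the groups were separate.

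The 3p arm miR-30c-2-3p stood at 5.92, 6.32 and 6.50 on the high-active arrays and at 5.10, 5.57 and 5.86 on the low-active arrays. Its difference of 0.71 (standard error 0.181, adjusted p = 0.0912 by limma) passed in 13 of 45 alternatives, among them the fit with the slide as a covariate (adjusted p = 0.0405 by limma). The other 3p arm, miR-30a-3p, differed by 0.68 (standard error 0.195, adjusted p = 0.0997 by limma). The remaining differences were 0.43 for miR-30e-5p, 0.36 for miR-30e-3p, 0.18 for miR-30b-5p and 0.12 for miR-30d-5p, with standard errors of 0.228, 0.170, 0.171 and 0.164. Over the 16 hairpins with both arms tested, the arms had the same direction in 9, the miR-30a and miR-30e hairpins among them.

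A large intronic cluster of Sfmbt2 on chromosome 2 encodes many closely related copies of the miR-466, miR-467, miR-297 and miR-669 kinds. This list was drawn up partly from the study's findings in the same samples, so its direction is not independent evidence. It was made by family name, and the position of each member was not checked. Of 60 members on the array 12 were tested, and all 12 had lower means in high-active mice, at a median of -0.58 and a range from -0.92 to -0.13. None passed the adjusted threshold, and 3 had an unadjusted p under 0.05, a share close to the 19.2% over all miRNAs tested, of which 147 of 281 had lower means. miR-669f-3p stood at 4.83, 5.05 and 5.78 on the high-active arrays and at 5.72, 5.97 and 6.88 on the low-active arrays, with a difference of -0.92 (standard error 0.252, adjusted p = 0.0912 by limma). The value of 6.88 came from the dimmest array, the EDL of mouse 195. miR-467b-5p was at the floor on all 6 high-active arrays, where it was not well above background, and detected on 5 of 6 low-active arrays, at 4.23, 4.94 and 5.12. The high-active level was thus lower by a factor of at least 1.39 (adjusted p = 0.0863 by limma). That bound is the strain difference of a fit with muscle as a covariate. In that fit each high-active array took its lowest detected signal, or its own signal where that was higher.

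Among brighter members the difference was -0.59 for miR-466h-3p (standard error 0.287), -0.62 for miR-467f (0.305) and -0.13 for miR-466i-5p (0.316). Since members are closely related, their probes can share signal and 12 lower means are not 12 separate observations. The list median was -0.26 within the soleus and -0.93 within the EDL. It was negative under every setting tried, from -0.95 to -0.17. The number of lower members dropped under some settings, as to 11 with normexp and 10 with the software's own signal per miRNA. With the floor 4 times as high the number was 9. There miR-466g, miR-467b-5p and miR-669n lay under that floor on every array and could show no difference. miR-466i-5p was higher in 6 of 47 alternatives, the fit with 1 value per mouse among them.

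**Figure D3:**
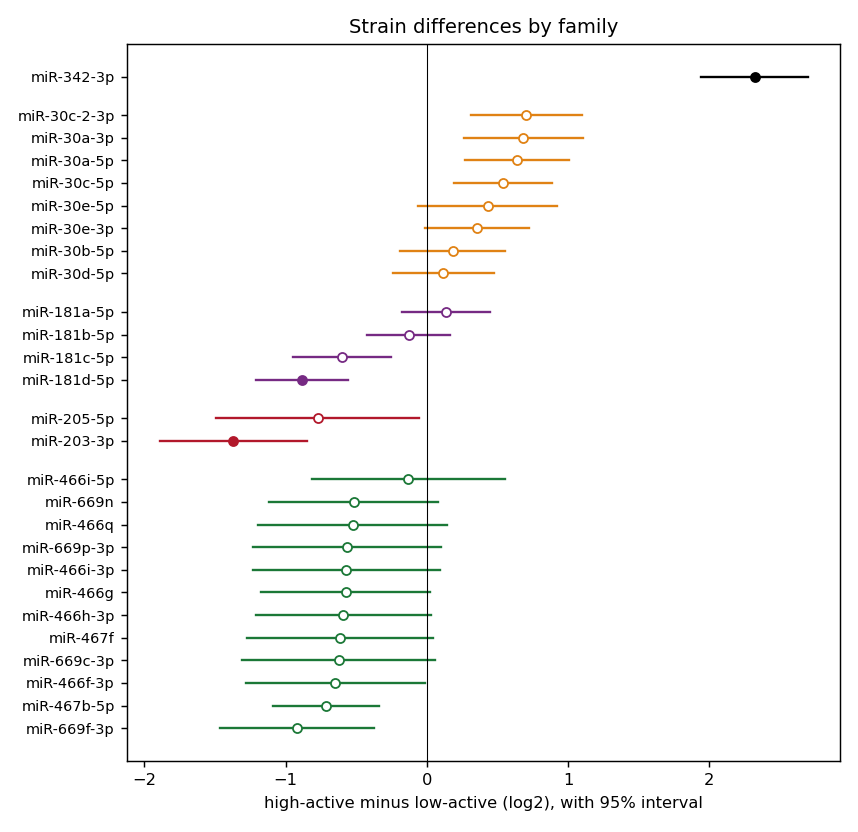
Fitted strain difference (high-active minus low-active, log2) with its 95% interval for miR-342-3p and the tested members of the miR-30 (orange), miR-181 (purple), epithelial (red) and Sfmbt2 (green) lists. Filled points have an adjusted p under 0.05. The interval of miR-342-3p runs from 1.94 to 2.70, away from all the others.

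The dominant muscle miRNAs differed little. Differences were -0.05 for miR-1a-3p (standard error 0.201), 0.04 for miR-133a-3p (0.199), 0.06 for miR-133b-3p (0.182) and 0.22 for miR-206-3p (0.323). Of 18 muscle miRNA arms on the array 9 were tested, 8 with a positive difference and none called, at a median of 0.12. That direction depended on the scaling, with 3 of 9 positive without scaling, which shifted the median of all miRNAs tested to -0.28, 5 of 9 after quantile normalization and 4 of 9 within the soleus. miR-99b-5p, the miRNA the study used as its reference, differed by 0.09 (standard error 0.151, 95% interval -0.24 to 0.41).

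Among slow-fibre miRNAs, miR-208b-3p, made from an intron of Myh7, was detected only in the soleus. It read 8.43, 8.52, 8.98 and 9.08 on the high-active soleus arrays and 7.23 and 7.65 on the low-active ones, and all 6 EDL arrays were at the floor. The difference was 1.31 within the soleus (adjusted p = 0.0675 by limma), where the strains did not overlap. miR-499-5p, from an intron of Myh7b, differed by 0.54 within the soleus and by 0.35 in the pooled fit (standard error 0.296, adjusted p = 0.557 by limma).

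The muscle-associated X-linked group of miR-322 and miR-450 was represented by 2 of 13 arms, both higher at an unadjusted p under 0.05. Among all 281 miRNAs tested 54 (19.2%) had such a p, 21 of them higher. The group as a whole was not tested. miR-450a-5p stood at 5.00, 5.37 and 6.00 on the high-active arrays and at 4.23, 4.58 and 5.34 on the low-active arrays, a difference of 0.78 (standard error 0.251, adjusted p = 0.14 by limma). miR-322-5p, encoded 6078 bases from the first of its loci on the same strand of the X chromosome and known to promote cell-cycle exit in myoblasts, differed by 0.39 (standard error 0.136, adjusted p = 0.144 by limma). For each the strains overlapped by array.

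The imprinted Dlk1-Dio3 cluster of chromosome 12 is active in muscle progenitors. Of its 98 arms on the list 24 were tested and none was called. Differences ran from -0.54 to 0.69, with a median of 0.15. At an unadjusted p under 0.05, 4 were higher and 1 lower, against 21 higher and 33 lower among all 281 miRNAs tested. By sign, 20 differences were positive and 4 negative. The split was 8 positive against 16 negative without scaling, 9 against 15 without the muscle covariate and 13 against 11 with 1 value per mouse. Among its members were miR-376c-3p at 0.69 (standard error 0.211, adjusted p = 0.119 by limma) and miR-299b-5p at 0.55 (standard error 0.201, adjusted p = 0.161 by limma). miR-3072-5p, which is encoded among them on chromosome 12 but was not on the list, differed by -0.68. The 9 let-7 members tested stayed between -0.17 and 0.12, and the 3 miR-378 arms, of which miR-378a comes from an intron of the mitochondrial regulator Ppargc1b, between -0.21 and -0.10. The 4 miR-29 arms, which target collagen genes, lay between -0.11 and 0.15, and the 5 tested miRNAs known to respond to training between -0.21 and 0.15, none with an unadjusted p under 0.05.

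Markers of other cell types gave no call apart from miR-203-3p. The 6 leukocyte miRNAs tested had differences of both signs, and none passed the adjusted threshold. miR-150-5p, of mature lymphocytes, differed by 0.47 (adjusted p = 0.203 by limma), miR-223-3p, of myeloid cells, by 0.19, and miR-142-3p, of all blood lineages, by 0.30. The inflammation-induced miR-146b-5p was lower, at 4.68, 5.34 and 5.91 against 6.01, 6.15 and 6.26, without overlap, with a difference of -0.67 (standard error 0.212, adjusted p = 0.131 by limma), and miR-146a-5p differed by -0.30. The summed level of the 6 leukocyte miRNAs tested was 10.2 to 10.6 on high-active and 9.82 to 10.3 on low-active arrays. The 3 red cell miRNAs tested had a median of 0.08, the 4 vascular ones 0.19 and the 5 fibroblast ones -0.16. Of 24 neural and glial arms 5 were detected and 4 tested, at 0.50 for miR-212-3p (standard error 0.226, adjusted p = 0.25 by limma), 0.27 for miR-132-3p, -0.08 for miR-128-3p and -0.45 for miR-338-3p. No arm of miR-124 or miR-9, the most neuron-specific of these, was detected on any muscle array.

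Several less studied miRNAs had large negative differences that did not pass the adjusted threshold. miR-5128 stood at 6.38, 7.66 and 10.2 on the high-active arrays and at 8.23, 8.98 and 10.8 on the low-active arrays, a difference of -1.79 with a standard error of 0.534 (adjusted p = 0.111 by limma). The groups overlapped, since the soleus array of high-active mouse 224 reached 10.2. It shares the run GAGAUGGCU with miR-3473a (-0.68) and miR-3473b (-0.66), a run found in 4 of 1679 mouse mature sequences of RefSeq (0.238%), 3 of which were tested. Their sequences were as follows, with seeds in capitals.
miR-5128: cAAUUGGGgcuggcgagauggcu
miR-3473a: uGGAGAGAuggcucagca

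miR-1892 differed by -1.01 (standard error 0.273, adjusted p = 0.0912 by limma). miR-504-3p was at the floor on all high-active arrays, although the spot flags counted it as detected on 1, and stood at 4.23, 5.82 and 5.90 on the low-active arrays (adjusted p = 0.0994 by limma), so the size of its difference is set by the floor. miR-1957a did not rise well above background in any high-active muscle and was at least 1.78-fold lower there (adjusted p = 0.119 by limma). Its low-active levels ran from 4.31 to 6.24, the highest on the dimmest array, the EDL of mouse 195. The 33 miRNAs that were lower at an unadjusted p under 0.05 had a median level of 5.74, against 6.88 for the 21 that were higher and 6.94 for all tested. Array brightness also differed between the strains, with a median scaling percentile of 1449 units on the low-active arrays and 1075 on the high-active ones. The dimmest array was nevertheless a low-active one, the EDL of mouse 195. The part of brightness in the differences was not tested. With array brightness added as a covariate, an alternative chosen after seeing the data, 46 miRNAs passed, 13 higher and 33 lower.

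Values were also compared without a model. For 9 miRNAs (3.2% of those tested) all 6 arrays of a strain lay beyond all 6 of the other, 4 higher and 5 lower in high-active mice. The higher ones were miR-342-3p, miR-30a-5p, miR-30c-5p and miR-30c-2-3p and the lower ones miR-181d-5p, miR-146b-5p, miR-1957a, miR-222-3p and miR-500-3p. For miR-1957a all high-active arrays were at the floor of 4.23 and the lowest low-active value was 4.31, so its separation depends on the floor. With 1 value per mouse after removal of the muscle effect, all 4 mice of a strain lay beyond the other 4 for 24 miRNAs (8.54%), 9 higher and 15 lower. miR-222-3p, known to hold back myoblast differentiation, read 4.57, 4.89 and 4.95 on high-active and 4.99, 5.24 and 5.38 on low-active arrays. The difference was -0.40 (adjusted p = 0.144 by limma). These levels are near the floor, and miR-222-3p was not detected on every array of either strain.

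Whether the strain difference itself differed between the muscles was tested with a strain by muscle term. By limma none of the 281 miRNAs passed (0%), and 10 had an unadjusted p under 0.05. The smallest adjusted p, 0.149, belonged to miR-201-5p and miR-208b-3p. miR-201-5p read 5.18, 5.19, 5.49 and 5.69 on the high-active soleus arrays, where it was detected on all 4, and was not well above background elsewhere, with the 2 low-active soleus arrays at 4.23 and 4.33. Over all muscle arrays, with muscle as a covariate, the high-active level exceeded the low-active bound at least 1.49-fold. miR-148a-3p differed by -1.06 within the soleus (adjusted p = 0.0432 by limma) and by -0.10 within the EDL (adjusted p = 0.935 by limma), while the difference between those values was -0.95 (standard error 0.306, adjusted p = 0.645 by limma).

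**Figure D4:**
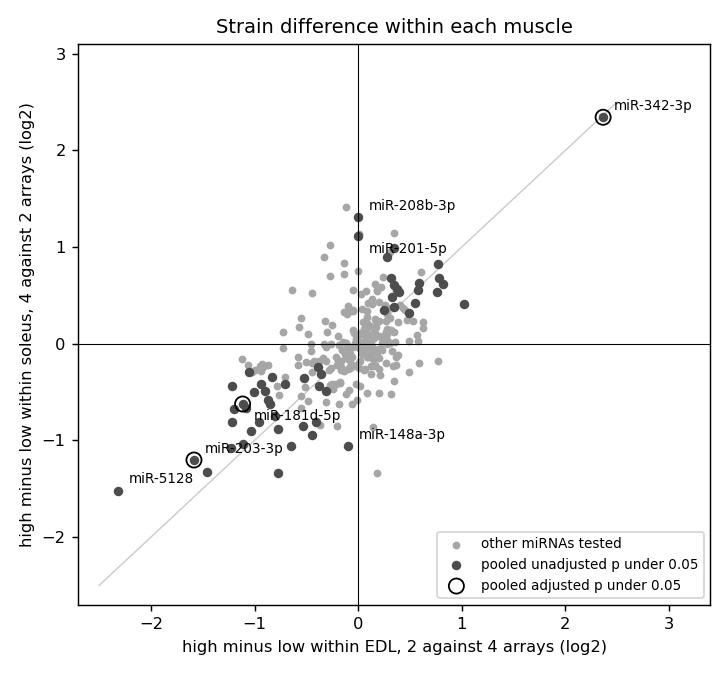
Strain difference (high-active minus low-active, log2) within the EDL, 2 against 4 arrays, on the horizontal axis and within the soleus, 4 against 2 arrays, on the vertical axis, for the 281 miRNAs tested. Dark points had an unadjusted p under 0.05 in the pooled fit, open circles an adjusted p under 0.05, and the grey line marks equal differences. miR-342-3p lies near that line at 2.36 and 2.34, and miR-208b-3p and miR-201-5p lie on the vertical axis because they were at the floor in the EDL.

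The signs within the soleus and within the EDL were equal for 199 of the 281 miRNAs, and for 5 the difference was 0 in a muscle. These counts describe different arrays, but 4 of the 8 mice gave both muscles, so the muscles are not independent. Of the 54 with an unadjusted p under 0.05 in the pooled fit, 52 had equal signs, which follows in part from their selection on that fit.

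The study listed 26 miRNAs as differing in the soleus or the EDL, and those lists were chosen on these samples. Of these, 12 were not detected on any muscle array by the rule used here, 7 were detected on 1 to 3 arrays and 7 were tested. miR-342-3p was called, and 6 of the 7, all but miR-193a-5p at -0.20 (standard error 0.250), had an unadjusted p under 0.05, against 19.2% of all miRNAs tested, which is no independent evidence as the lists came from these arrays. miR-1927 stood at the floor on all high-active arrays, of which the spot flags counted 1 as detected. It stood at 4.23, 5.66 and 5.94 on the low-active arrays (adjusted p = 0.144 by limma), so the size of its difference is likewise set by the floor. Apart from the arrays, the study measured miR-466 and miR-1960 in the soleus by qRT-PCR. It reported miR-466 lower in high-active mice, with no difference between the sexes, and only a trend for miR-1960. The soleus miR-466 it set out to measure was miR-466b-3p, detected here on 1 muscle array and not tested.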

How the data were processed

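Single-dye (Cy3) miRNA arrays of total RNA from 12 muscles of 8 mice were analysed. The deposited spot intensities were written by the authors' scanner software (Feature Extraction 10.7.1.1), which subtracted background and normalized nothing between arrays. According to the methods, arrays were chosen by RNA quality and some were dismissed after quality reports. The deposited table of log2 values, which the authors shifted by a percentile per array, has every entry centred on its median within a muscle and served only as an alternative.

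Non-control spots without an outlier flag (4.12% to 5.71% of spots were flagged) were averaged per miRNA. The scale of each array was its 75th percentile among the 187 miRNAs detected on all 12. Values were floored at the median of the lowest detected signals and taken to log2. miRNAs detected on at least 4 arrays were fitted with limma 3.58.1 in R 4.3.3 (strain and muscle, mouse as random block, correlation 0.202, eBayes, Benjamini-Hochberg). The mouse numbers in the sample titles pair both muscles of an animal. The procedure was tested on simulated arrays. Sequences were found for 221 of 281 tested miRNAs.

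Slides were numbered from the array identifiers, each holding both strains (2 and 2, 2 and 3, 2 and 1 high-active and low-active arrays). Differences within a slide were fitted with muscle as a covariate. In slides 2 and 3 they therefore rest on 1 low-active array and are not replicated comparisons. Named miRNAs were those called, the 10 with the smallest p, both arms of miR-342, miR-99b-5p, those the study lists, the 4 brightest of each list and the 5 with the smallest p for the strain by muscle term. miR-5128, miR-3473a, miR-3473b, miR-30a-3p, miR-30e-5p, miR-30e-3p, miR-376c-3p, miR-3072-5p, miR-142-3p, miR-146b-5p and miR-222-3p were named after their values were seen. Members and lists were chosen with earlier results of these data known.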

Additional observations from a re-analysis of the deposited data

Results flagged for a closer look

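Among the 20 miRNAs with the smallest p, 36 groups of 4 arrays were examined. In 3 of them an array stood apart from the other 3 by Dixon's criterion (the gap to the nearest array divided by the group's range, at the 95% level). Chance gives this in about 1 of 20 independent, unselected groups of normally distributed values. The groups here share arrays, were picked by p and include floored values, so that rate does not apply directly. All 3 that stood apart were in the low-active EDL. miR-30c-5p read 11.2 on the array of mouse 195 against 11.9 on the next (ratio 0.967). miR-504-3p (ratio 0.943) and miR-1927 (ratio 0.878) were at the floor of 4.23 on the array of mouse 197, against 5.81 and 5.73 on the next lowest.

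Outside the comparison, 5 of the 57 viral miRNAs on the array were detected on at least 4 of the 12 muscle arrays, 3 of them on all 12. No infection is given in the labels, and there is no array without muscle or brain RNA to set against these signals.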

How the results depend on the processing

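Alternatives concerned the signal, background, floor, scaling, filter, model and samples, with cyclic loess, array brightness and the dimmest array left out chosen after seeing the data. Against 3 calls (1 higher, 2 lower), 46 were made without scaling (45 lower), which moved the median of all miRNAs tested to -0.28. Array brightness as a covariate also gave 46 (13 higher, 33 lower), all 19 arrays in the fit 35 (20 higher, 15 lower), the brightest probe 10 (7 higher), a minimum of 1 in place of the floor 10 (3 higher, 7 lower) and the software signal 7 (2 higher, 5 lower). Cyclic loess gave 5 (3 higher), the authors' deposited values 5 (4 lower) and soleus alone 5 (4 lower). Detection on all 12 arrays gave 1 (0 higher, 1 lower), the floor 4 times as high 1 (0 lower) and EDL alone 1 (0 lower). With 1 value per mouse, or a 2-fold minimum, 1 was lower. Without the muscle covariate 2 were higher and 1 lower, and with normexp (on the median spot signal) 2 were higher and 0 lower. Quantile normalization and the slide covariate each gave 2 higher. Without the replicate block, which pairs muscles of a mouse, 11 were called (4 higher, 7 lower). Leaving out 1 array gave 1 to 30 calls (1 to 10 higher, 0 to 20 lower), and leaving out 1 mouse 1 to 7. The strain by muscle term gave 0 calls by limma (10 at an unadjusted p under 0.05) except with the software signal, which gave 2, miR-193a-5p and miR-452-5p. The causes were not tested. No called miRNA changed sign (miR-181d-5p came to 0 with the higher floor), whereas uncalled ones did, such as miR-466i-5p (higher in 6 of 47 alternatives), miR-30d-5p (lower in 3 of 46) and miR-206-3p (lower in 3 of 46), and so did the majority sign of the muscle and Dlk1-Dio3 lists. miR-342-3p passed in all 46 alternatives in which it was tested, miR-181d-5p in 38 of 46 and miR-203-3p in 37 of 45. The floor 4 times as high lay above every miR-181d-5p value and could not have called that miRNA. Signal near background limits the dim miRNAs.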
